A study of Mus musculus with 6 samples.

Results

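The nuclear genes of the mitochondrial respiratory chain and ATP synthase were examined in the list of accessible chromatin regions of untreated V6.5 mouse embryonic stem cells (mESCs). Members were the protein-coding RefSeq genes of GRCm38 whose symbols mark subunits of complex I (Nduf followed by a, b, c, s or v and a digit), complex II (Sdha to Sdhd), complex III (Uqcr), complex IV (Cox4 to Cox8) or complex V (Atp5). The rule found 87 genes, of which 40 belonged to complex I, 4 to complex II, 8 to complex III, 18 to complex IV and 17 to complex V. Of these, 86 had a curated transcription start site (TSS), among 21000 protein-coding genes with one, and Ndufb4b had predicted transcripts only. The 86 genes had 98 curated TSSs on 19 chromosomes, and 77 of them had a single one.

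The study asked how ZBTB21, a zinc finger protein that binds promoters, acts on cohesin and on chromatin loops. ATAC-seq inserts sequencing adapters into open chromatin with the transposase Tn5, and it was performed on 2 samples of untreated V6.5 mESCs, 2 samples of ZBTB21-degron mESCs at 0 h of IAA and 2 at 6 h of IAA, the last 4 with spike-in. All cells grew with LIF on irradiated mouse embryonic fibroblasts, the labels give a doxycycline treatment for the degron cells, and IAA is the auxin that triggers loss of the degron-tagged protein. The study's methods also list CHIR99021 and PD0325901 in the mESC medium and name no feeder cells. The results below rest on 1 list of 41014 peaks, which pools the 2 untreated samples, and the degron samples were not analysed here. Nothing in the list is given per sample, so no spread between replicates and no depth could be stated, and the intervals cover counting error only. Each peak carries a score from 540 to 953 with a median of 696. From its values it was read as the score of the irreproducible discovery rate (IDR). In that score, a higher value marks a peak that ranked consistently high in the replicates. Since 540 is the lowest score kept, a gene without a listed peak is not shown to be closed. Of 10 pluripotency genes, looked up as markers of the labelled cell type, 4 had a peak within 1 kb of a TSS (40%, 16.8 to 68.7%, against 28.5% of all protein-coding genes), namely Pou5f1 (score 861), Nanog (805), Zfp42 (892) and Sall4 (820), while Sox2, Klf4, Esrrb, Tdgf1, Dppa4 and Tfcp2l1 had none there. Of 10 fibroblast genes, which could mark feeder cells, Thy1 (829) had one and Col1a1, Col1a2, Col3a1, Twist1, Prrx1, Postn, Fbln2, S100a4 and Dcn had none (10%, 1.79 to 40.4%). Both intervals include the share of all genes, so these counts do not set the cell type apart.

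Complexes I to IV pass electrons from NADH and succinate to oxygen and, except for complex II, pump protons across the inner mitochondrial membrane, and complex V uses the returning protons to make ATP. Most subunits are encoded in the nucleus and are made in nearly every cell, so their promoters are housekeeping promoters, although complex IV also has isoforms restricted to muscle, lung or testis. The transcription factors NRF1, GABP and YY1 are known to bind promoters of many of these genes.

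Promoter sequences show what the members had in common and how they differed. RefSeq promoters (GRCm38.p6, from 250 bases before to 50 bases after the start) were at hand for 74 curated starts of 69 members. No such entry was used for the other members with a curated TSS, among them Ndufa2, Ndufa4l2, Ndufb4c, Ndufb9, Ndufs1, Sdhc, Uqcrb, Uqcrc2, Uqcrq, Cox4i1, Cox4i2, Cox6a2, Cox6c, Cox8c, Atp5a1 and Atp5mpl. The bases just before the start are printed for 9 members, 5′ to 3′ on the gene's strand, with motif letters in capitals. The motifs searched on both strands were NRF1 (GCGCANGCG), ETS (CCGGAAGT, the letters that GABP reads), YY1 (AAGATGGC), the SP/KLF GC box (GGGCGGGG), ZNF143 (ACTACAANT), CREB (TGACGTCA) and the E-box (CACGTG), and none of these strings contains another. Sdha (chr13:74350241-74350390, minus strand) and Ndufb4 (chr16:37654369-37654568, minus) are shown because each held 3 separate NRF1 matches and had no ATAC peak within 5 kb. Their sequences follow.
Sdha: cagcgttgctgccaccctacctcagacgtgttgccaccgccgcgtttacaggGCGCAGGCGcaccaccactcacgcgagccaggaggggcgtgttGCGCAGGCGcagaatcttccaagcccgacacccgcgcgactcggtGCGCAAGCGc
Ndufb4: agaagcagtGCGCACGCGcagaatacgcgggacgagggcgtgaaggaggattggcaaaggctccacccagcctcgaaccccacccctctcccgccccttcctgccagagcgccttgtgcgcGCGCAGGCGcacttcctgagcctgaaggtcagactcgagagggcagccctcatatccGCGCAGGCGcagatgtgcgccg

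Ndufa11 (chr17:56717582-56717761, plus) and Atp5k (chr5:108434400-108434549, minus) are shown because an NRF1 match lay inside an ATAC peak, which covered all of the bases printed. The match is palindromic in both and reads the same on either strand. In Ndufa11 a CREB match stands farther upstream.
Ndufa11: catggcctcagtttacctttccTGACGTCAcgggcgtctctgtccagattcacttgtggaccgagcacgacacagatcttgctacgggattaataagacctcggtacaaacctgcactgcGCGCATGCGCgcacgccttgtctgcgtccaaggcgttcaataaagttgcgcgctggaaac
Atp5k: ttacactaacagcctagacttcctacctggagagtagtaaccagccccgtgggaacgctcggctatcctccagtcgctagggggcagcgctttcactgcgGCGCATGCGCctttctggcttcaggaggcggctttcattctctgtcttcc

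Ndufa10 (chr1:92473759-92473908, minus), Ndufb2 (chr6:39592415-39592564, plus) and Uqcrfs1 (chr13:30545317-30545466, minus) are the 3 members with a CREB match and a ZBTB21 peak within 1 kb. The bases of Ndufa10 lay inside an ATAC peak and also held a GC box, read on the other strand, and no ATAC peak touched the bases of Ndufb2 and Uqcrfs1.
Ndufa10: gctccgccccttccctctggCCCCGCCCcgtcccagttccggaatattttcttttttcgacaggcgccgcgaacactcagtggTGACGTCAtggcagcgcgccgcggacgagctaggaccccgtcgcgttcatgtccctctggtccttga
Ndufb2: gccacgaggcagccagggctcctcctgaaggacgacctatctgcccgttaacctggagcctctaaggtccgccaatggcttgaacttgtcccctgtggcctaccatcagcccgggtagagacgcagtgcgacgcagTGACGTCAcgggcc
Uqcrfs1: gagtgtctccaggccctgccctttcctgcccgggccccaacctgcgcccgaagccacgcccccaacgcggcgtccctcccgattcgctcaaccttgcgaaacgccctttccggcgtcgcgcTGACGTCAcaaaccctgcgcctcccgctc

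Ndufv1 (chr19:4012756-4012935, minus) had the highest peak score of all members and an E-box. Cox8b (chr7:140900447-140900596, minus), a muscle isoform, is shown as the member promoter poorest in CpG, with 1 CpG among the 150 bases printed and no motif match.
Ndufv1: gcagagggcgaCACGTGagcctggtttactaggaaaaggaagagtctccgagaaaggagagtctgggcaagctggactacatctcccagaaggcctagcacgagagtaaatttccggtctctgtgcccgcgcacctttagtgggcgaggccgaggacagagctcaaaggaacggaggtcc
Cox8b: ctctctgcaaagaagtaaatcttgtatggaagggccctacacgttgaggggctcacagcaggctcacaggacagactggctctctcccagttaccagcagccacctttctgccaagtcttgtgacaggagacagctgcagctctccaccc

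Of the 86 members, 38 had an ATAC peak within 1 kb of a TSS, or 44.2% (Wilson 95% interval 34.2 to 54.7%), against 28.5% of all protein-coding genes (5991 of 21000). Within 5 kb the number was 44, or 51.2% (40.8 to 61.4%), against 39.3% of all genes. Both intervals lay above the share of all genes, but no test over samples exists for a pooled list. The other 42 members had no peak within 5 kb. Groups of genes that are likewise used in nearly all cells had these shares within 1 kb: 40 of 78 mitochondrial ribosomal protein genes (51.3%, 40.4 to 62.1%), 22 of 40 proteasome subunit genes (55%, 39.8 to 69.3%) and 38 of 76 cytosolic ribosomal protein genes (50%, 39.0 to 61.0%). At 5 kb the cytosolic ribosomal protein genes reached 57 of 76, above the interval of the members, and the other groups 45 of 78 and 25 of 40. Each of the 3 intervals at 1 kb overlapped that of the members.

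**Figure D1:**
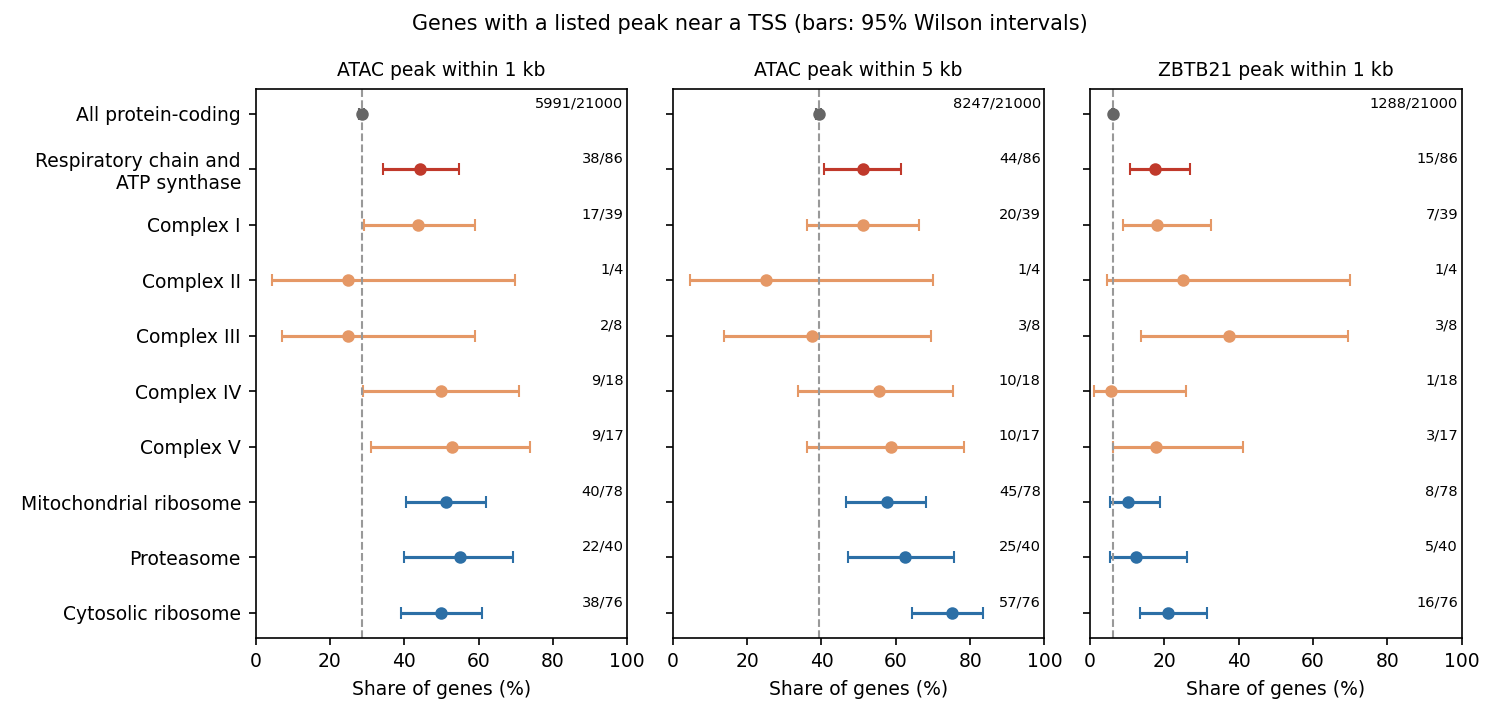
Share of genes (%, x axis) with an ATAC peak within 1 kb of a TSS (left), within 5 kb (middle) and with a ZBTB21 peak within 1 kb (right), for all protein-coding genes (grey), members (red), their complexes (orange) and 3 other gene groups (blue). Points are shares, bars Wilson 95% intervals, the dashed line the share of all genes, and the counts stand at the right. The members lie at 44.2%, 51.2% and 17.4%, to the right of the line in each panel.

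Where a member had a peak within 1 kb, it had exactly 1, and no peak served 2 members. Over all genes, 2 or more peaks within 1 kb were also rare (335 of 21000, 1.60%), a share inside the members' interval of 0 to 4.28%. The best score had a median of 834.5 in the 38 members, with a range of 561 to 941, against 754 over the 5991 genes with a peak. The lower and upper quartiles were 717 and 885 in members and 656 and 844 in all genes, so the distributions overlapped over most of their range. A score of 900 or more was found at 6 members, or 15.8% of the 38 (7.44 to 30.4%), and at 588 of the 5991 genes. The share of all genes with a peak lay inside the members' interval, so this count does not set the members apart. The median was 777 for mitochondrial ribosomal protein genes, 790.5 for proteasome subunit genes and 780 for cytosolic ribosomal protein genes.

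**Figure D2:**
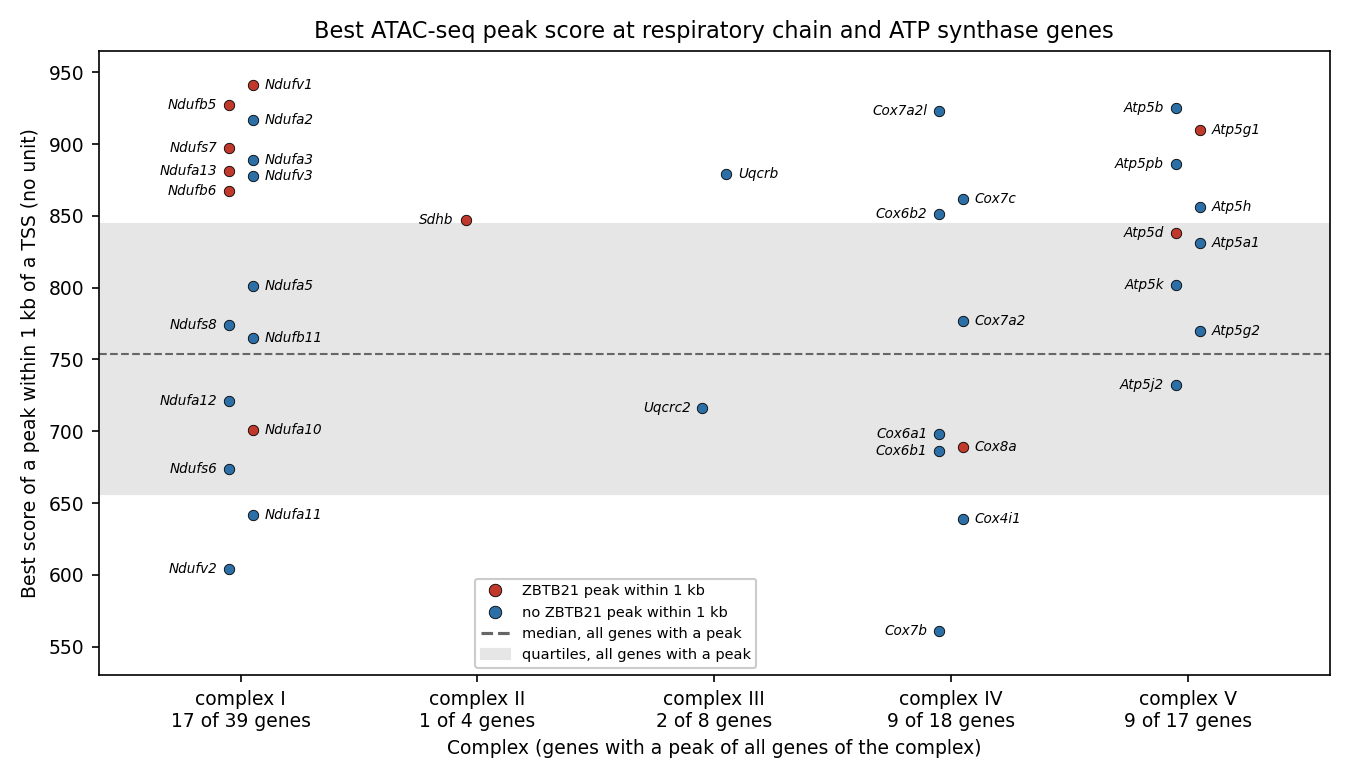
Best score (no unit, y axis) of a peak within 1 kb of a TSS for members with one, by complex (x axis), with 1 member of complex I left out of the plot. Red points have a ZBTB21 peak within 1 kb and blue points have none, the dashed line is the median of all protein-coding genes with a peak (754), and the grey band their quartiles. Ndufv1 stands highest at 941 and Cox7b lowest at 561, and the scores of complex V all lie at 732 or above.

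Complex I, the NADH dehydrogenase, had a peak within 1 kb at 17 of 39 genes (43.6%, 29.3 to 59.0%) and within 5 kb at 20. Its 7 nuclear core subunits carry the flavin and the iron-sulfur clusters or surround the quinone site. Of these, 5 had a peak within 1 kb (71.4%, 35.9 to 91.8%), and of the other subunits 12 of 32 (37.5%, 22.9 to 54.7%). These intervals overlap, and that of the other subunits includes the 28.5% of all genes. Ndufv1, which binds FMN and takes the electrons from NADH, had the highest score of any member, 941, at chr19:4012473-4013249. The iron-sulfur subunits Ndufs7 and Ndufs8 had 897 and 774. Ndufv2, the iron-sulfur partner of Ndufv1, had 604, the second lowest score of all members. The core subunits therefore held both a score near the top of the list and one near its lower limit. Ndufs1 had its nearest peak 3801 bp away with a score of 717, and Ndufs3 had its nearest 37800 bp away.

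The accessory subunits of complex I stabilise the core and are needed for its assembly. Ndufb5 (927) and Ndufa2 (917) scored highest among them. They were followed by Ndufa3 (889), Ndufa13 (881), Ndufv3 (878), Ndufb6 (867), Ndufa5 (801), Ndufb11 (765), Ndufa12 (721), Ndufa10 (701), Ndufs6 (674) and Ndufa11 (642). Besides these, Ndufb9 and Ndufb10 had peaks only farther out, at 4340 bp (576) and 4107 bp (725), and the peak near Ndufb10 covered the TSS of the ribosomal protein gene Rps2. The peak near Ndufb9 lay in an intron of Tatdn1. No peak within 5 kb was listed for Ndufa1, Ndufa4, Ndufa4l2, Ndufa6, Ndufa7, Ndufa8, Ndufa9, Ndufb1, Ndufb2, Ndufb3, Ndufb4, Ndufb4c, Ndufb7, Ndufb8, Ndufc1, Ndufc2, Ndufs4 and Ndufs5. Among these, Ndufb3 lay 81006 bp and Ndufa4, which is also assigned to complex IV, 40720 bp from the nearest peak.

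Complex II, succinate dehydrogenase, links the chain to the citric acid cycle and is the only complex without a subunit encoded in mitochondrial DNA. Sdhb, its iron-sulfur subunit, had a peak at chr4:140960928-140961613 with a score of 847, centred 1 bp upstream of the TSS. The flavoprotein Sdha and the membrane anchors Sdhc and Sdhd had none within 5 kb, and their nearest peaks lay 8768, 8847 and 9809 bp away. With 4 genes the share of 25% has an interval of 4.56 to 69.9%.

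In complex III, which passes electrons from ubiquinol to cytochrome c, 2 of 8 genes had a peak within 1 kb (25%, 7.15 to 59.1%). They were Uqcrb (879) and the core protein gene Uqcrc2 (716). For Uqcrfs1, the Rieske iron-sulfur protein, the nearest peak lay 3481 bp away (672). Uqcrc1, Uqcrh, Uqcrq, Uqcr10 and Uqcr11 had none within 5 kb. The intervals of complexes II and III span the shares of the other complexes, so a difference between complexes was not detectable with so few genes.

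Complex IV, cytochrome c oxidase, had a peak within 1 kb at 9 of 18 genes (50%, 29.0 to 71.0%). Its highest score was at Cox7a2l (923), which is known to take part in joining complexes III and IV into supercomplexes. Next came Cox7c (862), Cox6b2 (851) and Cox7a2 (777). The remaining scores stood below the median of 754 over all genes with a peak. They were Cox6a1 at 698, Cox8a at 689, Cox6b1 at 686, Cox4i1 at 639 and Cox7b at 561, the lowest of all members. Of these, only Cox4i1 and Cox7b lay below the lower quartile of 656 over those genes. The median of 698 stood below the 867 of complex I and the 838 of complex V. Cox6a1 and Cox4i1 were also the members just inside the limit, since their peaks began 939 and 998 bp from the TSS. Cox6c had its nearest peak 2071 bp away (706), and Cox5a and Cox5b had none within 5 kb.

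The members included 8 tissue-restricted isoforms, 7 of them in complex IV. Of the 8, 1 had a peak within 1 kb (12.5%, 2.24 to 47.1%), an interval that includes the 28.5% of all genes. The isoform with a peak was Cox6b2, the testis isoform of Cox6b1. Its peak at chr7:4751889-4753438 was 1550 bp wide, the widest at any member, and scored 851 against 686 at Cox6b1. The lung isoform Cox4i2, the muscle isoforms Cox6a2, Cox7a1 and Cox8b, the testis isoforms Cox7b2 and Cox8c and the hypoxia-induced Ndufa4l2 had their nearest peaks between 6252 bp (Ndufa4l2) and 585728 bp (Cox7b2) away. Without these isoforms, 37 of 78 members (47.4%, 36.7 to 58.4%) and 8 of 11 complex IV genes (72.7%, 43.4 to 90.3%) had a peak within 1 kb. The share of all genes without these 8 was 28.5%, and tissue-restricted genes outside the members were kept in it. Of the 11 complex IV genes, 6 had a peak over a TSS (54.5%, 28.0 to 78.7%), against 25.2% of all genes. A best score above the list median was found at 4 of the 11 (36.4%, 15.2 to 64.6%), against 18.7% of all genes.

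Complex V, the ATP synthase, had a peak within 1 kb at 9 of 17 genes (52.9%, 31.0 to 73.8%), and each of the 9 scored above the median of the whole list. Such a score was also found at 31 of the 38 members with a peak and at 3918 of the 5991 genes with one. It was therefore not particular to complex V. In the F1 part, which makes ATP, the catalytic subunit Atp5b scored 925, the delta subunit Atp5d 838 and the alpha subunit Atp5a1 831. Of the other F1 genes, Atp5c1 lay 93803 bp and Atp5e 13294 bp from a peak. The c-ring that turns with the proton flow is encoded by 3 genes for the same mature protein. Atp5g1 scored 910 and Atp5g2 770, and Atp5g3 had none within 5 kb. In the peripheral stalk, Atp5pb (886) and Atp5h (856) had a peak, Atp5o had its nearest at 1504 bp, the member just outside the limit, and Atp5j had none within 5 kb. Of the small membrane subunits, Atp5k (802) and Atp5j2 (732) had a peak and Atp5l, Atp5mpl and Atp5md had none, with Atp5md 41185 bp away. The 2 peaks within 5 kb of Atp5o scored at most 655.

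The peaks of the members sat on the start sites. In 35 of 38 members (92.1%, 79.2 to 97.3%) the best peak covered a TSS, against 87.1% of all genes with a peak, and its centre lay within 250 bp of the TSS in 31 (81.6%, 66.6 to 90.8%), against 73.9%. These shares of all genes lie within the intervals. The median width was 800 bp in members and 773 bp in all genes. By the RefSeq annotation, the peak centre fell in an exon of the member in 11 cases, in an intron of it in 6, in another gene in 3 and between genes in 18. The 3 peaks that touched no TSS of their member were those of Cox4i1, in introns of Emc8 and Gm27021, of Cox6a1, in its own intron, and of Ndufa13, in an exon of the neighbouring Tssk6, 63 bp from the start.

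**Figure D3:**
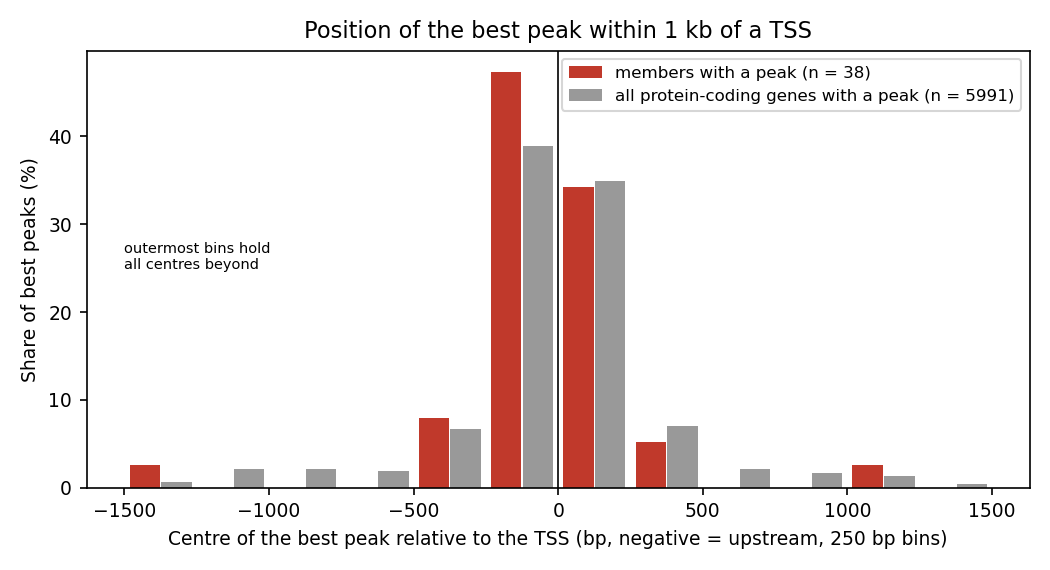
Position of the centre of the best peak relative to the TSS (bp, x axis, 250 bp bins, negative upstream) as a share of best peaks (%, y axis), for the 38 members with a peak (red) and the 5991 genes with a peak (grey). Of the members' centres, 47.4% lay in the 250 bp upstream and 34.2% in the 250 bp downstream of the TSS, and the 2 far from it belong to Cox4i1 and Cox6a1.

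Many members faced another gene. A protein-coding TSS on the other strand lay within 1 kb upstream of 26 of the 86 members (30.2%, 21.5 to 40.6%), against 8.86% of all genes. The share was 34.6% in mitochondrial ribosomal protein genes (25 to 45.7%), 17.5% in proteasome subunit genes (8.75 to 32.0%) and 14.5% in cytosolic ribosomal protein genes (8.28 to 24.1%). Among the pairs were Ndufs1 with Eef1b2 (9 bp between the starts), Ndufa7 with Rps28 (10 bp), Ndufs3 with Kbtbd4 (19 bp) and Sdhd with Timm8b (52 bp), none of which had a peak within 1 kb of the member. Atp5j faced Gabpa, which encodes the DNA-binding subunit of GABP, at 102 bp, also without a peak. Over all genes, 44.0% of those with such a neighbour and 27.0% of the rest had a peak within 1 kb. In members the counts were 10 of 26 (38.5%, 22.4 to 57.5%) and 28 of 60 (46.7%, 34.6 to 59.1%), with intervals that overlap. The best peak lay within 1 kb of another gene's TSS in 12 of 38 members (31.6%), against 15.7% of all genes with a peak, so that its score cannot be assigned to one gene. This held for Ndufa11 (with Vmac), Ndufa13 (Tssk6), Ndufa2 (Ik), Ndufa3 (Oscar), Ndufa5 (Asb15), Ndufb11 (Rbm10), Ndufb5 (Mrpl47), Uqcrb (Gm10767), Cox4i1 (Emc8 and Gm27021), Atp5a1 (Haus1), Atp5h (Kctd2) and Atp5pb (Wdr77).

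ZBTB21 peaks, 1827 in mESCs, were taken from the study's list, for which the protein was precipitated by its GFP tag in ZBTB21-degron cells and not in the cells of the ATAC list. Within 1 kb of a TSS, 15 of 86 members had one (17.4%, 10.9 to 26.8%), against 6.13% of all genes, and within 5 kb 16 had one, against 7.04%. The 16th was Ndufb10, at 4188 bp. By complex the counts within 1 kb were 7 of 39, 1 of 4, 3 of 8, 1 of 18 and 3 of 17 from I to V. The share was 21.1% in cytosolic ribosomal protein genes (13.4 to 31.5%), 12.5% in proteasome subunit genes (5.46 to 26.1%) and 10.3% in mitochondrial ribosomal protein genes (5.29 to 19%), each of which overlaps the interval of the members.

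Of these 15 members, 10 also had an ATAC peak within 1 kb. In order of its score they were Ndufv1 (941), Ndufb5 (927), Atp5g1 (910), Ndufs7 (897), Ndufa13 (881), Ndufb6 (867), Sdhb (847), Atp5d (838), Ndufa10 (701) and Cox8a (689). Their median of 874 stood beside 789 for the 28 members with an ATAC peak only. Over all genes the medians were 792 (653 genes) and 750 (5338 genes). The ZBTB21 peak overlapped the best ATAC peak in all of these except Ndufa13, and it covered a TSS in all except Atp5g1, where it lay 184 bp away. The remaining 5 members, Ndufb2, Uqcrfs1, Uqcrh, Uqcrq and Atp5md, had a ZBTB21 peak over a TSS and no listed ATAC peak within 1 kb. All 3 members of complex III with ZBTB21 were in this last group. Over all genes, 653 of the 1288 with a ZBTB21 peak also had an ATAC peak within 1 kb.

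The position of members within the study's chromatin loops (anchors included) was also counted. A TSS of 20 members (23.3%, 15.6 to 33.2%) lay within one of the 500 ZBTB21-responsive loops, against 15.6% of all genes, and of 2 members, Cox7b and Cox7c, within one of the 500 less-responsive loops (2.33%, 0.640 to 8.09%), against 5.74%. Of the 20 members, 6 had an ATAC peak within 1 kb, among them Atp5b, Cox7a2l and Ndufa10, and 14 had none. These were 15.8% of the 38 members with such a peak (7.44 to 30.4%) and 29.2% of the 48 without (18.2 to 43.2%). The intervals overlap, and the same split was not counted over all genes. The responsive loops were chosen by the study partly for ZBTB21 peaks. Loops were ranked there by ZBTB21 signal and cohesin change at the ATAC-seq peaks inside them. Loops of a class also overlap, so these counts are a description of position.

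The promoters of members were rich in CpG. The ratio of observed to expected CpG had a median of 0.801 in the 74 member promoters and 0.588 in all 20488 promoters (of 16853 genes), at a similar GC content of 57.5% and 57%. A ratio of 0.6 or more was reached by 61 of 74 (82.4%, 72.2 to 89.4%) against 49.1%. High CpG was not particular to the members, since 68 of 75 promoters of mitochondrial ribosomal protein genes, 58 of 66 of cytosolic ribosomal protein genes and 25 of 35 of proteasome subunit genes also reached that ratio. Among promoters with that ratio, 27 of 61 in members had an ATAC peak within 1 kb (44.3%, 32.5 to 56.7%) against 35.9% of all, so that the interval includes the share of all CpG-rich promoters. A ZBTB21 peak lay near 13 of the 61 (21.3%, 12.9 to 33.1%) against 11.1%. The median ratio was 0.744 in member promoters with an ATAC peak and 0.855 in those without, while over all promoters the values were 0.720 and 0.482. The 40 member promoters without a peak, among them those of Sdha and Ndufb4 printed above, had a higher median than all promoters with one.

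The NRF1 motif was found in 21 of 74 member promoters (28.4%, 19.4 to 39.5%), against 8.88% of all promoters. Among CpG-rich promoters it was 21 of 61 (34.4%, 23.7 to 47.0%) against 16.9%. The letters also stood in 16 of 75 promoters of mitochondrial ribosomal protein genes (21.3%, 13.6 to 31.9%), 6 of 35 of proteasome subunit genes (17.1%, 8.10 to 32.7%) and 8 of 66 of cytosolic ribosomal protein genes (12.1%, 6.27 to 22.1%), with intervals that overlap that of the members. The NRF1 letters stood in 8 of 34 member promoters with an ATAC peak (23.5%, 12.4 to 40.0%) and in 13 of 40 without (32.5%, 20.1 to 48.0%), intervals that overlap. Besides Sdha and Ndufb4 with 3 separate matches, Ndufa8, Uqcrc1 and Cox6a1 held 2. None of the 15 member promoters with a ZBTB21 peak within 1 kb held the NRF1 letters, which allows a share of up to 20.4%, and 15.2% of all promoters with a ZBTB21 peak did, so a difference was not detectable with 15 promoters. These promoters came from 14 members, since Atp5d was counted with 2 starts and Uqcrq had no promoter at hand.

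The YY1 letters were found in 10 of 74 member promoters (13.5%, 7.51 to 23.1%), against 3.11% of all promoters. Among CpG-rich promoters they stood in 8 of 61 in members (13.1%, 6.80 to 23.8%) against 4.99% of all. They were not particular to the members, since 12 of 75 promoters of mitochondrial ribosomal protein genes (16%, 9.40 to 25.9%), 7 of 66 of cytosolic ribosomal protein genes (10.6%, 5.23 to 20.3%) and 3 of 35 of proteasome subunit genes (8.57%, 2.96 to 22.4%) held them too. Of the 10 member promoters, 5 had an ATAC peak within 1 kb and 5 had none. The carriers were Ndufa3, Ndufa9, Ndufb8, Ndufc1, Ndufs4, Ndufs6, Ndufs7, Atp5j, Atp5j2 and Atp5pb. ZNF143 letters were in 5 (6.76%, 2.92 to 14.9%) against 2.03%, and ETS letters in 5 as well, against 5.31%. The E-box was found in 7 (9.46%, 4.66 to 18.3%) against 8.03%. The GC box stood in 12 (16.2%, 9.53 to 26.2%) against 24.3% of all. The counts were 9 of 34 with an ATAC peak (26.5%, 14.6 to 43.1%) and 3 of 40 without one (7.50%, 2.58 to 19.9%), with intervals that overlap. The CREB letters stood in 4 member promoters (5.41%, 2.12 to 13.1%) against 2.3%. Ndufa11 apart, these were Ndufa10, Ndufb2 and Uqcrfs1, printed above, all with a ZBTB21 peak. Over all promoters with a ZBTB21 peak, 254 of 1267 (20%) held the CREB letters. None of the 7 motifs was found in 25 of the 74 member promoters. Member promoters are not independent of one another where a gene has several starts, as Ndufa5, Ndufa7, Atp5c1, Atp5d and Atp5j do.

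**Figure D4:**
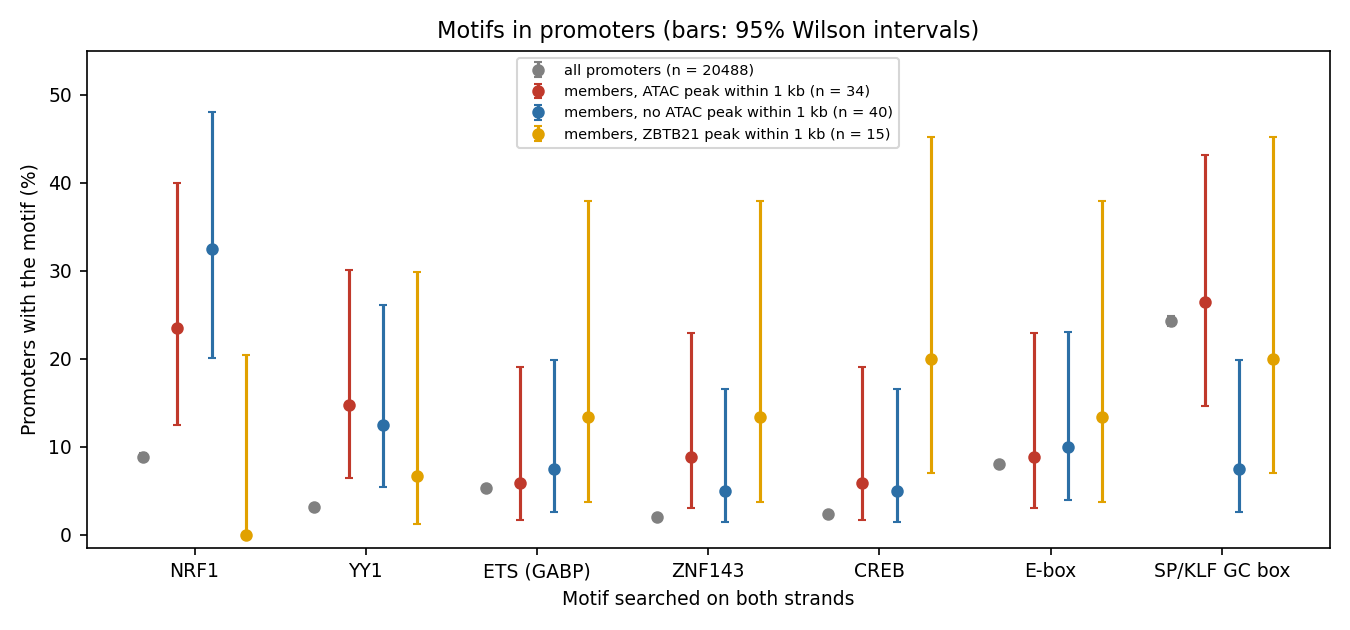
Share of promoters (%, y axis) that hold each motif (x axis), for all promoters (grey), members with an ATAC peak within 1 kb (red), members without (blue) and members with a ZBTB21 peak within 1 kb (yellow, which are also among the red or blue). Bars are Wilson 95% intervals. The NRF1 letters stand at 23.5% and 32.5% in red and blue and at 0 of 15 in yellow, and the CREB letters at 20% in yellow.

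Genes that work with the respiratory complexes were read from further lists. Of 47 assembly factors, with the complex I protein Ndufab1 and cytochrome c (Cycs) counted among them, 22 had an ATAC peak within 1 kb (46.8%, 33.3 to 60.8%), 25 within 5 kb and 11 a ZBTB21 peak within 1 kb (23.4%, 13.6 to 37.2%). The shares of all protein-coding genes were 28.5%, 39.3% and 6.13%, and the interval at 5 kb (53.2%, 39.2 to 66.7%) reaches down to that of all genes. Their best scores had a median of 805 and ran from 556 to 940. Among 15 regulators of respiratory genes and of mitochondrial DNA, 5 had an ATAC peak within 1 kb (33.3%, 15.2 to 58.3%), an interval that includes the 28.5% of all genes. They were Yy1 (585), the coactivator gene Ppargc1b (721), the transcription factor gene Tfb2m (795), the mitochondrial RNA polymerase gene Polrmt (668) and the DNA polymerase gene Polg (742). Nrf1, Gabpa, Gabpb1, Esrra, Ppargc1a, Pprc1, Tfam, Tfb1m, Polg2 and Twnk had no ATAC peak within 5 kb. Of the 15, Yy1 and Polg2 had a ZBTB21 peak within 1 kb (13.3%, 3.74 to 37.9%, against 6.13% of all genes).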

How the data were processed

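ATAC-seq libraries of mESCs were prepared with Tn5 and size-selected for mono- and dinucleosomes. The authors deposited 1 peak list of the untreated condition (mm10), with a score per peak and no other measurement. The submitters' processing notes name cutadapt 2.6, Bowtie2 2.3.5.1 and MACS2 2.1.1. The study describes an IDR threshold of 0.05 for its ChIP-seq peaks only, and whether cut sites were shifted for Tn5 is not given in the sources used here. Depth per sample is unknown.

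TSSs were the starts of curated RefSeq transcripts (NM or NR) on GRCm38, the assembly named mm10. A peak counted if any base lay within 1 kb or 5 kb of a TSS, and the best score was the highest among such peaks. ZBTB21 peaks and loops were coordinates from the study's supplementary lists. Motifs were exact letters on both strands. Shares carry Wilson 95% intervals. No test was run, since the list pools the replicates. The members and gene lists were chosen with earlier results of these data known. The pattern for cytosolic ribosomal protein genes was corrected after its matches were seen to include kinase genes.

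Genes named with values were the 5 highest and 5 lowest scores, members with ZBTB21, isoforms, complex II, members 1 to 5 kb from a peak, the 5 farthest, members just inside and outside 1 kb, shared peaks and regulators, and other members with a peak were added. The values of 1 member are not reported here, although it is in the counts. Distances and the motif search were tested on simulated data against a direct count (0 of 20000 distance counts differed and 0 of 1400 planted motifs were missed). Python 3.11.15, numpy 2.4.6, pandas 2.3.3, scipy 1.17.1 and matplotlib 3.10.9 were used.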

Additional observations from a re-analysis of the deposited data

How the results depend on the processing

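No paired analysis was possible because the peak list pools the replicates, and for the same reason no replicate could be left out. Alternatives were limits of 500 bp and 2.5 kb, peaks scoring above the list median of 696, peak centres in place of any base, predicted transcripts included, 1 TSS per gene, and members without the 8 tissue-restricted isoforms. Of 75 values for 12 results, 74 stayed within 1.5 times the main count or within 1 SD of the main median. This limit was set on counts and not on shares, so a shift in a share could pass it. Without the isoforms, complex IV stayed within it at 8 of 11 genes (72.7%), against 9 of 18 (50%) in the main run. Several values had little room to move. Only 1 isoform had an ATAC peak within 1 kb and none had a ZBTB21 peak there, so leaving them out could change those counts little. Complexes II and III stayed at 1 and 2 genes in each run, and the SD for the median score was wide at 103. Members with an ATAC peak within 1 kb numbered between 31 (scores above the median, against 18.7% of all genes) and 40 (within 2.5 kb, against 33.2%), and members with a ZBTB21 peak 15 under each alternative run. The exception was complex IV, where only 5 of the 9 genes with a peak kept one when the score had to exceed the median.

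The list holds no depth and no values per replicate. Peaks scoring under 540 are not in it, so the 42 members without a listed peak within 5 kb were not read as closed chromatin. Intervals for complexes of 4 to 39 genes are wide, and differences between complexes were not tested.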
